A study of Mus musculus with 36 samples.

Results

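The comparison described here set B cells carrying the R35A form of the transcription factor C/EBPα against B cells carrying its wild-type form, 18 hr after the factor was switched on. In R35A, the arginine at position 35 is replaced by alanine. It consists of 4 RNA-seq libraries, 2 of wild-type cells and 2 of R35A cells, chosen by their labels (construct and 18h) out of the 36 libraries of the series. Both groups were mouse bone marrow B cells, freshly isolated from C57BL/6J animals, infected with a retrovirus that carries C/EBPα fused to the hormone-binding part of the estrogen receptor together with human CD4 (C/EBPα-ER-hCD4), enriched for hCD4, and grown on wild-type inactivated mouse embryonic fibroblast (MEF) feeders with IL-7. Estradiol moves the fusion into the nucleus and starts the B cell to macrophage transdifferentiation (BMT), so that times are given as hours post induction (hpi). According to the methods, the medium for induction also held IL-3, FLT-3, CSF-1 (M-CSF) and stem cell factor, and renewed medium left out IL-7. The 2 groups share the vector, feeders, medium, hormone and culture time and differ in the amino acid at position 35. The same constructs were also collected at 0, 1, 3, 6 and 120 hpi, and another form, R35K, is held in a separate table. The labels number the libraries of a group as replicates without saying whether they came from separate animals, so p-values below measure the spread between these libraries.

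C/EBPα is the founding member of a family of basic leucine zipper factors and is required for the formation of granulocyte and macrophage progenitors in the bone marrow. When forced into B cells it acts together with PU.1, the Ets family factor encoded by Spi1, to open and activate myeloid enhancers, while B lineage regulators such as Pax5 and Ebf1 are shut down. Carm1 encodes an enzyme that puts methyl groups on arginine residues of histones and of other proteins, among them transcription factors.

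The 4 libraries held 15063130 and 16546385 counts on genes for wild-type cells and 15252871 and 19155430 counts for R35A cells. Replicates at 18 hpi were close to each other, with a median squared difference between them of 1.29 times (wild type) and 1.13 times (R35A) that of counting noise alone. The counts per gene do not show the base change that makes R35A, so the construct of a library was taken from its label and not checked in the data. The label of B cells was checked against markers. Summed over 12 B cell markers, the level was 407 and 411 CPM (counts divided by the TMM-scaled library total and not corrected for gene length, so that levels are compared between libraries and not between genes) in the wild-type libraries and 298.2 and 298.0 CPM in the R35A libraries, against 932 and 932 CPM and 3815 and 3846 CPM for 12 macrophage markers. All 12 markers of either list passed the low-count filter. The libraries also held much RNA of fibroblast type, which is described below with the genes it touches.

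Of 16988 genes tested, 1711 (10.1%) were called different between the constructs at 18 hpi, with 1173 (6.9%) higher and 538 (3.17%) lower in R35A cells (edgeR quasi-likelihood test, Benjamini-Hochberg adjusted p of at most 0.05 and at least a 1.5-fold difference). In bulk RNA, fewer cells of a type and less RNA per cell cannot be told apart, here and in all that follows. The difference was at least 2-fold for 665 of the higher and 214 of the lower genes, and at least 4-fold for 157 and 26. Receptors, secreted proteins and enzymes of myeloid cells stood at the top of the higher side, whereas the cytokine receptor gene Kit and several genes that are not of the B lineage led the lower side. At 0 hpi, before induction, the same edgeR test called 0 genes (0%), with 1618 genes at an unadjusted p under 0.05. The change from 0 to 18 hpi differed between the constructs in 1421 genes (8.36%), upward for R35A in 930 (5.47%) and downward in 491 (2.89%). DESeq2 called 1443 genes at 18 hpi, 929 higher and 514 lower.

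Cebpa itself (chr7:35119293-35121928 on mm10, annotation GENCODE vM21) had 39.7 and 39.4 CPM in wild-type cells and 53.7 and 53.0 CPM in R35A cells, a log2 fold change of 0.43 ± 0.07 (SE) that did not reach 1.5-fold. Reads of the endogenous gene and of the virus cannot be told apart in these counts. Carm1 had 74.7 and 70.9 CPM against 69.2 and 70.8 CPM, a difference no larger than its error (log2 fold change −0.06 ± 0.06, adjusted p = 0.53, edgeR).

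The 12 genes with the largest positive differences, among those with at least 10 CPM in R35A cells and no overlap between the groups, were for the most part genes of macrophages and other myeloid cells. Arg1 (chr10:24915221-24927484), the arginase of alternatively activated macrophages, had 0.91 and 0.89 CPM in wild-type cells and 16.65 and 18.18 CPM in R35A cells, a 19.3-fold difference. Acod1, which makes itaconate in activated macrophages, had 6.06 and 6.1 CPM against 80.2 and 79.8 CPM. Apoe, the lipid carrier of the macrophage, had 53.1 and 52.5 CPM against 599.9 and 625.0 CPM, a 11.6-fold difference. In each of these genes both R35A libraries stood far above both wild-type libraries, and the replicates of a group lay close together. The same held for the acute phase gene Saa3 (log2 fold change 3.95 ± 0.18), the formyl peptide receptor Fpr2 (3.67 ± 0.18), the G-CSF receptor Csf3r (3.47 ± 0.17), the platelet factor gene Pf4 (3.38 ± 0.06), the chemokine Cxcl3 (3.31 ± 0.12) and the receptor Tlr1 (3.19 ± 0.16). Ms4a14, Aoah and Ms4a7 completed the 12, with log2 fold changes of 3.47, 3.43 and 3.18.

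The differences on the lower side were smaller. Kit, the receptor of stem cell factor, had 17.1 and 16.9 CPM in wild-type cells and 3.84 and 3.63 CPM in R35A cells, a log2 fold change of −2.19 ± 0.13. Prtn3, proteinase 3 of myeloid granules, had 15.6 and 13.7 CPM against 3.84 and 3.57 CPM, the single lower member among the granule genes described below. Igfbp2, which binds insulin-like growth factors, had 56.9 and 52.9 CPM against 15.3 and 14.1 CPM. The other 9 genes of the lower side were Myh11, Ptprz1, Lipg, Ptn, Adgrg3, Myom1, Rnf144a, Pcsk6 and Ipcef1, with log2 fold changes between −1.73 and −1.42. Myh11 (smooth muscle myosin), Myom1 (a sarcomere protein) and the growth factor gene Ptn are not known as genes of the B lineage. Wild-type and R35A libraries did not overlap in 63.4% of all genes tested, so that the absence of overlap alone is common here.

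**Figure D1:**
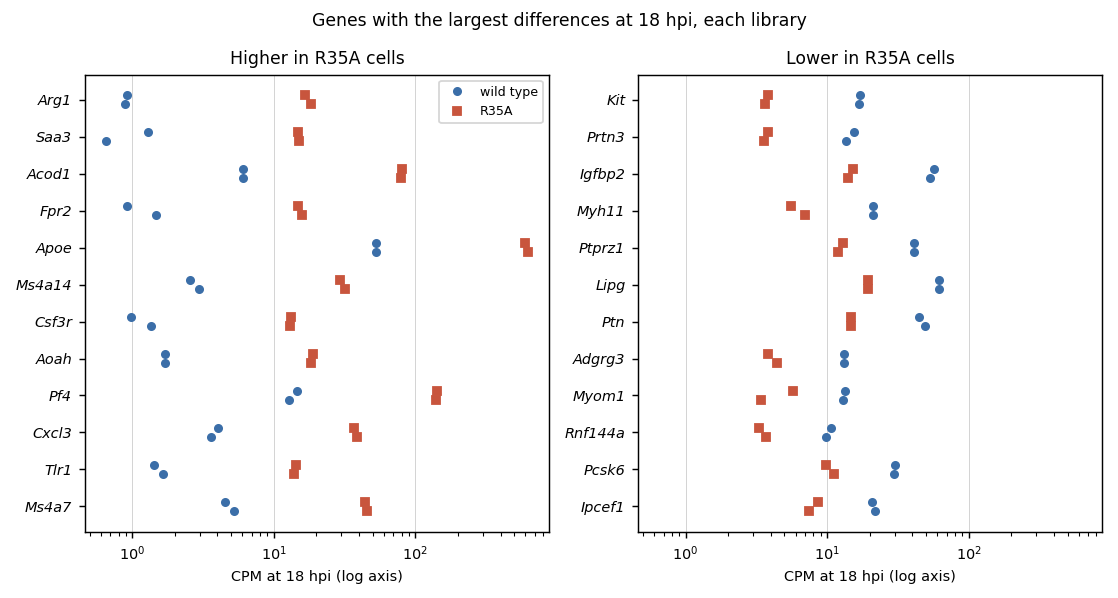
Level of the 24 genes with the largest differences, in CPM on a log axis, in each of the 2 wild-type (blue circles) and 2 R35A (red squares) libraries at 18 hpi. Apoe reaches 625.0 CPM in R35A cells and Kit lies at 3.84 and 3.63 CPM. The 2 groups are separate for every gene shown because the rule left out genes with overlap.

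Promoter sequence was looked at for these genes because C/EBP and PU.1 sites lie in front of many myeloid genes. The stretches are from RefSeq (GRCm38.p6, the same coordinates as mm10), read 5′ to 3′ on the strand of the gene, end at the start of transcription or of the first annotated exon, and are shown for the first 3 genes of each direction that the table holds and for Pf4, which was added after the matches were seen. Arg1 was not in the table. Capitals mark a match to TTGCNNAA, a form of the C/EBP motif, or to GAGGAAGT, a form of the PU.1 motif, on either strand. Matches to the 2 motifs do not overlap in the stretches shown. The stretch of Prtn3 lies inside the longer gene that GENCODE draws there.
Saa3 (chr7:46715701-46715926, minus strand): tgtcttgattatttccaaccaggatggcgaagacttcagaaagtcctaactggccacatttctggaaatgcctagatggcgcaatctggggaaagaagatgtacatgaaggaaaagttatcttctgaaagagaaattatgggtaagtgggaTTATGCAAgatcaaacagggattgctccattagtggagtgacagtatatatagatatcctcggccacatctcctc
Acod1 (chr14:103046762-103046976, plus strand): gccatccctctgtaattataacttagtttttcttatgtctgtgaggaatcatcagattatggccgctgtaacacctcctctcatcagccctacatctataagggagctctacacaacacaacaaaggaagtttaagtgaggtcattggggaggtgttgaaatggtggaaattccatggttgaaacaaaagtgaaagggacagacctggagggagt
Fpr2 (chr17:17887574-17887823, plus strand): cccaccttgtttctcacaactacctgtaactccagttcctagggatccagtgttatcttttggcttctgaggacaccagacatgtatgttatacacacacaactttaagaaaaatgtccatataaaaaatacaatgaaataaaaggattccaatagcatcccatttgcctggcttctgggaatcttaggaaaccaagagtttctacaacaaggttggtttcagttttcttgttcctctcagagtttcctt
Pf4 (chr5:90772185-90772434, plus strand): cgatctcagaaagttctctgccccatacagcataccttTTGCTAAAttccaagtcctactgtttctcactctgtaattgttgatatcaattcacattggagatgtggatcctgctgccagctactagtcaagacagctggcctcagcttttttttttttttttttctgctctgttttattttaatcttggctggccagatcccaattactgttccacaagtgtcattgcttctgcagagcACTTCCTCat
Kit (chr5:75574737-75574915, plus strand): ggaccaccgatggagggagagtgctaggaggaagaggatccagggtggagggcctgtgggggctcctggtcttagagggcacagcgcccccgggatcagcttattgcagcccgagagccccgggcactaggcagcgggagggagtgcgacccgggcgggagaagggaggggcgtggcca
Prtn3 (chr10:79879417-79879613, plus strand): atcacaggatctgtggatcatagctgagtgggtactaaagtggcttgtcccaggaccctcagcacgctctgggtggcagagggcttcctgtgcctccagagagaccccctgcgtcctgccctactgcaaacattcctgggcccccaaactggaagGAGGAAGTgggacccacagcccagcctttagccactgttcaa
Igfbp2 (chr1:72824230-72824479, plus strand): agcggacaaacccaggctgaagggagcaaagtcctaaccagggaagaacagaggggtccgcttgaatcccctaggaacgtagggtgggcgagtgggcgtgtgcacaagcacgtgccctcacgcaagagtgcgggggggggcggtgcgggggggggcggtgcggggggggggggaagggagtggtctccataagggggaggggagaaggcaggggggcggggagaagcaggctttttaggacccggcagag
Saa3 held a C/EBP match, Pf4 held both motifs and Prtn3 a PU.1 match, and the other 4 stretches held neither. Among genes higher in R35A cells, 835 of 1173 had a promoter in the table, and 15.7% of these had a C/EBP match in the 250 bases before the start, compared with 9.21% of the 11753 tested genes with a promoter and 9.56% of the 32851 promoters of the table. The PU.1 match was present in 7.9% of the higher genes, in 3.09% of the tested genes and in 2.44% of the promoters of the table. Among the lower genes (366 with a promoter) the shares were 9.56% and 2.19%, close to those of all tested genes. These are counts of letters and not of bound sites.

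Of 31 myeloid transcription factors tested, 16 were higher in R35A cells at 18 hpi, 15 were not called and 0 were lower, with a median log2 fold change of 0.59, whereas over all genes tested 6.9% were higher and the median was 0.00040. Spi1 (chr2:91082390-91115756) had 44.0 and 44.5 CPM in wild-type cells and 113 and 118 CPM in R35A cells, a log2 fold change of 1.38 ± 0.05. The R35A libraries thus held 2.6 times the Spi1 level of the wild-type libraries at this time. Tfec, a relative of Mitf in the myeloid lineage, differed by 2.27 ± 0.14, the oxysterol receptor Nr1h3 by 2.13 ± 0.26, Cebpb by 0.72 ± 0.07 and Id2, an inhibitor of E proteins, by 0.96 ± 0.04 on the log2 scale. Irf8 had 47.9 and 45.8 CPM against 50.0 and 51.7 CPM, and Egr1 had 430.1 and 416 CPM against 439 and 440.2 CPM, and neither was called. Batf2 and Batf3 were called from levels below 1 CPM and lost the call when a library was left out. Of 12 AP-1 factors only Batf was called (1.89 and 1.72 CPM against 4.55 and 3.88 CPM).

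Receptors for the factors that drive myeloid growth moved in both directions. Of 10 such genes 6 were higher and 2 lower. Csf1r, the M-CSF receptor of macrophages, had 151 and 146 CPM in wild-type cells and 622 and 631 CPM in R35A cells. Csf3r, Csf2rb2 (1.29 ± 0.04), Csf2rb (1.1 ± 0.04) and Csf2ra (0.97 ± 0.09) were higher as well. The receptors of early progenitors were the 2 lower genes, Kit and Flt3, the latter with 5.60 and 5.27 CPM against 2.47 and 2.28 CPM. Il7r, which B cell progenitors use and which is the 6th of the higher genes, had 27.6 and 29.2 CPM against 67.7 and 70.6 CPM.

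Of the 20 macrophage genes that the study itself used for its plots, 19 were higher and 0 lower, with a median log2 fold change of 1.67. The study selected that list without saying on which samples, so that it cannot be taken as independent evidence of the direction. Itgam (CD11b), the marker by which conversion is usually followed, had 31.5 and 30.5 CPM against 118 and 112 CPM. Lyz2, the macrophage lysozyme, had 523 and 525 CPM against 2299 and 2307 CPM. Cd14, the co-receptor for bacterial lipopolysaccharide, had 22.2 and 23.3 CPM against 109 and 113 CPM. The replicates differed little and the groups were separate in all 3 genes.

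Of 26 pattern recognition receptors, 21 were higher and 0 lower (median 1.59), with Fpr2, Tlr1 and Fpr1 (2.82 ± 0.21) at the top and Tlr3 (4.36 and 4.03 CPM against 4.75 and 4.71 CPM) among the 5 that were not called. Of 20 complement and scavenging genes 17 were higher, among them the C5a receptor C5ar1 (log2 fold change 2.74 ± 0.10) and the scavenger receptor Stab1 (2.47 ± 0.06). Among Fc receptors 6 of 8 were higher, led by the high-affinity IgG receptor Fcgr1 (2.23 ± 0.15), and among subunits of the NADPH oxidase, which makes superoxide in phagocytes, 5 of 7, led by Ncf4 (1.89 ± 0.07) with Cybb at 1.41 ± 0.04. In integrins and adhesion molecules 8 of 16 were higher. Adgre1 (F4/80), a marker of mature macrophages, had 26.3 and 29.7 CPM against 109 and 115 CPM. None of these 5 lists had a member called lower (edgeR, 3.17% of all genes were lower), a share at which lists of this size would hold few. With adjusted p alone, 3 members of the integrin and adhesion list and 1 of the complement and scavenging list were lower.

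Of 26 cytokine and chemokine genes, 19 were higher and 1 lower (median 1.40). Il1b had 2.47 and 2.37 CPM in wild-type cells and 20.0 and 21.1 CPM in R35A cells, and Tnf had 15.2 and 15.5 CPM against 86.8 and 89.0 CPM. Cxcl3, Il1a (2.71 ± 0.23) and Cxcl2 (2.45 ± 0.05) were also among the higher members. The lower member was Ccl22 (4.88 and 4.38 CPM against 2.28 and 2.23 CPM), a chemokine of dendritic cells and some macrophages. Among chemokine and cytokine receptors 9 of 19 were higher, and Ccr7, which guides lymphocytes and dendritic cells to lymph nodes, was lower (−1.17 ± 0.31).

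Of 18 immunometabolic enzymes 11 were higher, led by Arg1 and Acod1, and Nos2, at most 1.04 CPM in any of the 4 libraries, lost its call without wild-type replicate 1 or R35A replicate 2. Interferon-stimulated genes were divided. Of 22, 11 were higher and 0 lower, with Oas2 at 2.54 and 2.66 CPM against 10.7 and 8.91 CPM, while Isg15, a common readout of interferon, had 3.97 and 3.61 CPM against 3.64 and 3.73 CPM. In lysosome genes 10 of 32 were higher, with the cathepsin gene Ctss at 102 and 105 CPM against 445 and 448 CPM. Of 10 MHC class II genes 4 were higher with small differences, as in Cd74, the invariant chain (51.8 and 48.7 CPM against 84.4 and 82.6 CPM). Of 19 granule genes 7 were higher and Prtn3 was lower. Mmp8, a collagenase of neutrophils, had 256.4 and 256.1 CPM against 863 and 847 CPM, while Mpo, Elane and Ctsg, the defining enzymes of the early granule, lay below 1 CPM in every library.

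Lipid handling genes were mixed (8 of 14 higher, 2 lower), with Fabp5 (19.8 and 17.6 CPM against 67.4 and 66.4 CPM) on the higher and the monoglyceride lipase Mgll (16.1 and 16.6 CPM against 7.09 and 5.70 CPM) and the transfer protein Pltp on the lower side. Of 23 genes of cholesterol synthesis and uptake 2 were called higher, among them Stard4 (0.61 ± 0.08), 8.7% of the list, near the 6.9% of all genes. The Bcl2 family had 2 of 13 higher, Bcl2a1b and Bcl2a1d, which are near-identical copies whose reads the counting could split, so that both values are uncertain.

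**Figure D2:**
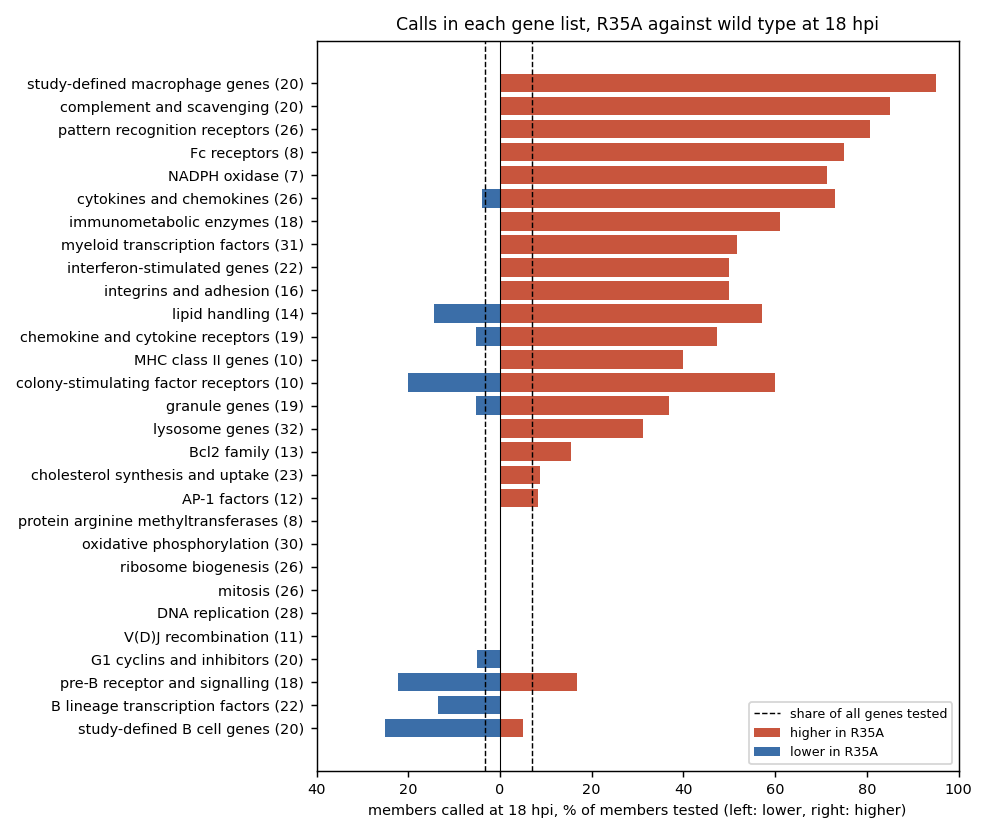
Share of the tested members of each gene list that was called higher (red, to the right) or lower (blue, to the left) in R35A cells at 18 hpi, in percent, with the number of members tested in brackets and the share over all genes as dashed lines at 6.9% and 3.17%. The study-defined macrophage genes reach 95.0%, the lists of dividing cells and of respiration stay at 0, and 25.0% of the study-defined B cell genes are lower.

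Of the 20 B cell genes the study used, 5 were lower in R35A cells, 1 was higher and 14 were not called, with a median log2 fold change of −0.43. The same limit holds for this list, and 8 members were lower when the libraries were scaled by DESeq2 size factors. Igll1 and Vpreb1, which form the surrogate light chain of the pre-B receptor, had 76.8 and 74.0 CPM against 42.3 and 43.7 CPM and 31.0 and 32.0 CPM against 19.4 and 17.6 CPM. Cd79a, Cd79b and Bcl11a were the other lower members. The groups did not overlap in these genes, although the differences stayed below 2-fold. The higher member was Cd2 (0.33 and 0.65 CPM against 2.21 and 2.33 CPM), a surface protein that B cells share with T cells.

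The regulators at the head of the B lineage were not called at 18 hpi. Pax5 (chr4:44524757-44710487), the commitment factor, had 50.9 and 57.4 CPM in wild-type cells and 40.7 and 36.4 CPM in R35A cells, a log2 fold change of −0.50 ± 0.05 whose adjusted p passed (4.8e-11, edgeR) while the fold did not. Ebf1 had 49.7 and 50.9 CPM against 43.5 and 43.0 CPM. Rag1 (3.78 and 5.15 CPM against 3.06 and 2.95 CPM) missed the fold threshold and passed it under DESeq2 size factors, under the DESeq2 test and without wild-type replicate 1. Of 22 B lineage transcription factors 0 were higher and 3 lower, Myb (30.02 and 30.73 CPM against 16.2 and 17.2 CPM), Bcl11a and Erg, and without R35A replicate 1 or wild-type replicate 1 Erg was no longer called. Of 11 genes of V(D)J recombination 0 were called (edgeR, 4 at an unadjusted p under 0.05), and 1 was called lower by DESeq2 and without wild-type replicate 1.

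Among 18 genes of the pre-B receptor and its signalling, 4 were lower and 3 higher. The lower members were parts of the receptor, and the higher members were Ptpn6 (33.9 and 37.2 CPM against 77.5 and 78.0 CPM), a phosphatase of all blood cells, Cd22, and Syk (136 and 131 CPM against 249.7 and 246 CPM), a kinase that macrophages use behind Fc receptors. Cyfip2, a component of the complex that drives actin branching, had 121 and 115 CPM against 124 and 120.5 CPM, whereas Havcr2 (TIM-3) had 17.1 and 17.8 CPM against 46.6 and 47.5 CPM.

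Genes of dividing cells were not called at this time. Of 28 DNA replication genes and 26 mitosis genes 0 were called (edgeR and DESeq2), with 8 and 7 at an unadjusted p under 0.05, and the medians were 0.03 and −0.02 on the log2 scale. Mki67, the marker of cycling cells, had 131 and 126 CPM in wild-type cells and 125 and 123 CPM in R35A cells, and Top2a had 79.9 and 79.4 CPM against 86.4 and 84.1 CPM. Among 20 G1 cyclins and inhibitors the single call was Ccnd2, cyclin D2, which was lower (611 and 619 CPM against 398 and 392 CPM). Ribosome biogenesis (26 genes), oxidative phosphorylation (30 genes) and protein arginine methyltransferases (8 genes) had 0 calls each by edgeR and by DESeq2, with 13, 9 and 2 members at an unadjusted p under 0.05. Prmt1, the main enzyme of the last list, had 224 and 221 CPM against 203 and 214 CPM.

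RNA of fibroblast type was abundant in all 4 libraries and differed between the groups. The protocol removed feeders by letting them settle on culture dishes, yet 15 fibroblast markers summed to 20090 and 19640 CPM in wild-type cells and to 14270 and 14360 CPM in R35A cells, to which Fn1 (also a gene of macrophages) gave 12248 and 11919.8 CPM and 8669 and 8752 CPM. All 15 markers were present. Of the 15, 4 were lower (Postn, Sparc, Col1a1 and Col5a1), 2 were higher (Dcn and Lum) and 9 were not called, with a median of −0.32. Among the other cell types, markers of neutrophils summed to 259.4 and 259.0 CPM against 870 and 854 CPM, which is mostly Mmp8, and those of T and NK cells to less than 1 CPM in every library.

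Several contractile genes, a set put together after their values were seen, were lower in R35A cells. Acta2, smooth muscle actin, had 3275 and 3197 CPM in wild-type cells and 1497 and 1509 CPM in R35A cells, and Actg2 had 67.6 and 69.2 CPM against 27.4 and 27.5 CPM. Of 15 such genes 9 were lower and 0 higher, with a median of −0.79. Col1a1, a collagen of fibroblasts, had 1065 and 1017 CPM against 619 and 627 CPM. Itgb1, the integrin chain of many adherent cells, had 2834 and 2907 CPM against 2209 and 2169.9 CPM, and was not called. The part of the fibroblast RNA in the lower genes named above, among them Myh11, Ptn and Igfbp2, was not tested, and neither was its part in the scale of the other genes.

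Among the genes higher in R35A cells at 18 hpi, 87 (7.42%) fell in wild-type cells from 0 to 120 hpi. Over all genes tested 40.2% fell. Of the 87 genes, 6 are given here. Mmp3, the stromelysin, had 25.5 and 23.3 CPM in wild-type cells and 101.0 and 97.0 CPM in R35A cells, Dcn (decorin) had 39.7 and 40.4 CPM against 136 and 132 CPM, and Serpina3n had 6.51 and 6.99 CPM against 25.7 and 27.5 CPM. Timp1, an inhibitor of matrix proteases (581 and 562 CPM against 877 and 893 CPM), Osmr, the oncostatin M receptor (219.8 and 219.0 CPM against 350.4 and 337 CPM), and Ptx3, a long pentraxin (70.3 and 71.3 CPM against 108 and 105 CPM), were also higher. Each of these 6 genes was below 20 CPM in wild-type cells at 120 hpi except Osmr, at 25.8 CPM. These 6 genes were named after their values were seen. Dcn is also in the list of fibroblast markers, and the part of fibroblast RNA in the 6 genes was not tested. The MHC class II gene H2-Ab1 was among the 87 as well.

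**Figure D3:**
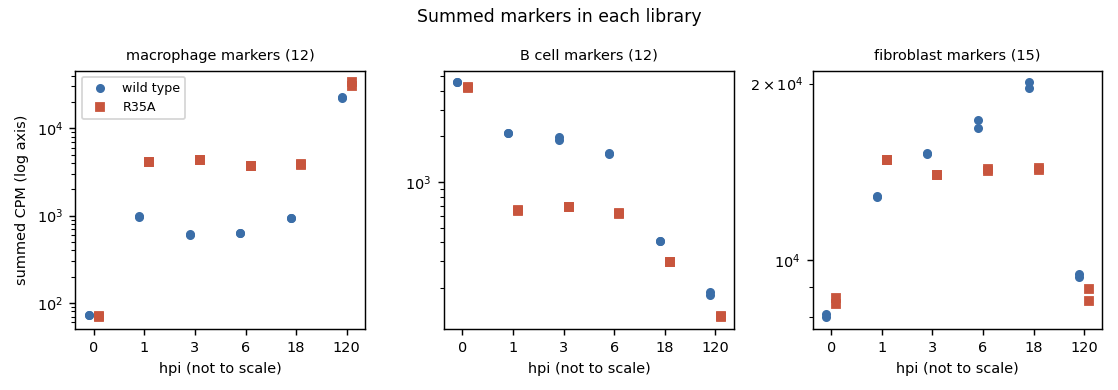
Summed CPM (log axes that differ between panels) of 12 macrophage markers, 12 B cell markers and 15 fibroblast markers in each library of wild-type (blue circles) and R35A (red squares) cells from 0 to 120 hpi. At 18 hpi the macrophage markers lie at 3815 and 3846 CPM in R35A cells against 932 and 932 CPM in wild-type cells, and the fibroblast markers lie higher in the wild-type libraries.

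Most genes higher at 18 hpi had been higher at 6 hpi too, whereas most of the lower genes had not been called at 6 hpi. At 6 hpi 1053 genes (6.2%) were higher and 1278 (7.52%) lower in R35A cells. Of the 1173 genes higher at 18 hpi, 690 (58.8%, and 65.5% of those at 6 hpi) were higher at 6 hpi too. Of the 538 lower genes 196 (36.4%, and 15.3% of those at 6 hpi) had been lower. Another 338 (62.8%) had not been called at 6 hpi, as was the case for 86.3% of all genes tested. The 18 hpi and 6 hpi comparisons share no libraries. The difference between the constructs itself changed from 6 to 18 hpi in 1435 genes (8.45%, interaction in the same fit), upward in 1099 (6.47%) and downward in 336 (1.98%).

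The upward changes included the genes of cell division. At 6 hpi 25 of 26 mitosis genes and 19 of 28 DNA replication genes were lower in R35A cells, and from 6 to 18 hpi the difference moved upward in 26 and 18 of them. In wild-type cells the mean level of Mki67 was 1328 CPM before induction, 569.8 CPM at 6 hpi and 129 CPM at 18 hpi, and in R35A cells it was 1246, 243 and 124 CPM. The B cell genes followed the same order. Of the study's 20, 17 were lower in R35A cells at 6 hpi and 5 at 18 hpi, and the difference moved upward in 15. Pax5 had 224 CPM in wild-type and 77.5 CPM in R35A cells at 6 hpi, after 879 and 814 CPM at 0 hpi, so that the constructs lay closer together at 18 hpi.

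The macrophage genes of the study, by contrast, had 19 of 20 higher at 6 hpi and 19 at 18 hpi, and the difference changed in 1. Csf1r had 89.8 CPM in wild-type and 547 CPM in R35A cells at 6 hpi, and Lyz2 had 386 and 2437 CPM. Spi1, with 66.3 and 101 CPM at 6 hpi, was a gene whose difference grew, since the wild-type level was lower and the R35A level higher at 18 hpi. Arg1 also grew, from 1.1 and 6.36 CPM at 6 hpi. Il7r and Ptprc (CD45, the pan-leukocyte phosphatase, with 122 and 126 CPM against 288 and 300.5 CPM at 18 hpi) had differences that changed upward as well.

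**Figure D4:**
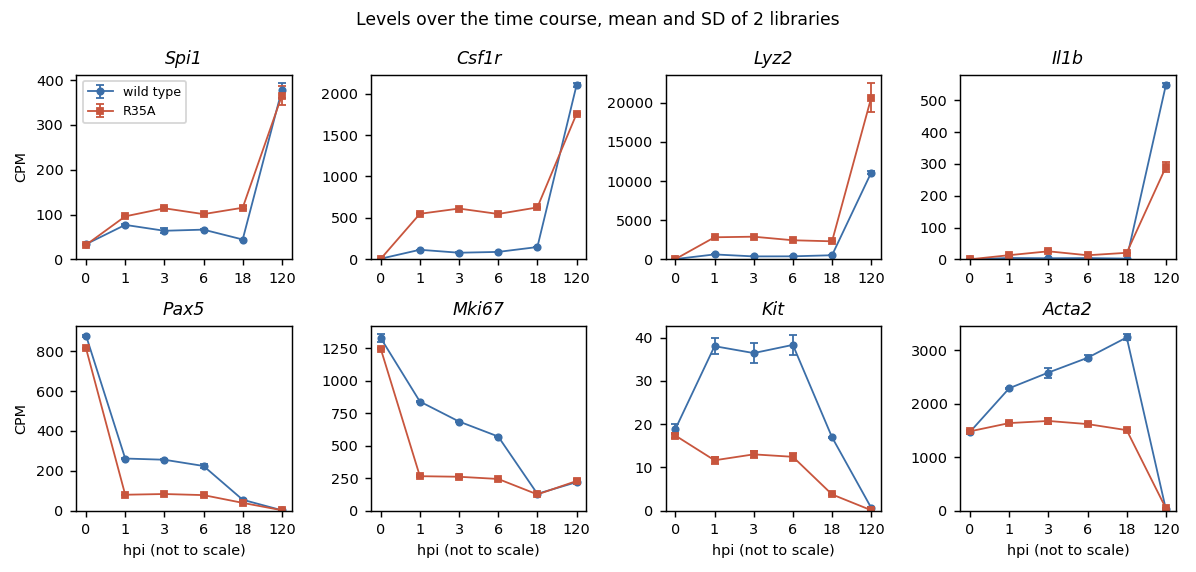
Mean CPM of 8 genes at 6 times from 0 to 120 hpi in wild-type (blue circles) and R35A (red squares) cells, with SD over the 2 libraries of each group as bars and the time axis not to scale. Pax5 and Mki67 are lower in R35A cells at 6 hpi (77.5 against 224 CPM for Pax5) and lie closer to the wild-type level at 18 hpi, while Spi1, Csf1r and Lyz2 stay above it until 18 hpi.

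The pattern at 120 hpi was a different one. At that time 2103 genes (12.4%) were higher and 1084 (6.38%) lower in R35A cells, and of the 1173 genes higher at 18 hpi 238 (20.3%, and 11.3% of those at 120 hpi) were still higher while 174 (14.8%, and 16.1%) were lower. The difference at 120 hpi differed from that at 18 hpi in 3791 genes (22.3%), with 1796 (10.6%) downward and 1995 (11.7%) upward. Of the study's 20 macrophage genes, 18 moved downward and 0 upward. Il1b had 548 CPM in wild-type and 290.4 CPM in R35A cells at 120 hpi, and Clec4e, a receptor for damaged cells and mycobacterial lipid, had 956 and 402 CPM after 33.0 and 216 CPM at 18 hpi. Ccr2, the receptor that calls monocytes into tissue, had 9.36 and 26.2 CPM at 18 hpi and 2085 and 712 CPM at 120 hpi. MHC class II genes went from 4 of 10 higher at 18 hpi to 8 of 10 lower at 120 hpi. Without wild-type replicate 2, 3 of the 10 were higher at 18 hpi, and H2-Ab1 and H2-DMb2 were no longer called. Apoe (7607 and 15064 CPM), Pf4 (315 and 639 CPM) and Ms4a7 (215 and 415 CPM) were still higher in R35A cells at 120 hpi. Of the 15 fibroblast markers, 11 were higher and 1 lower at 120 hpi (median 1.49), against 2 and 4 at 18 hpi. Of the 15 contractile genes, 7 were higher and 0 lower at 120 hpi. The part of fibroblast RNA in the counts of genes at 120 hpi was not tested.

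**Figure D5:**
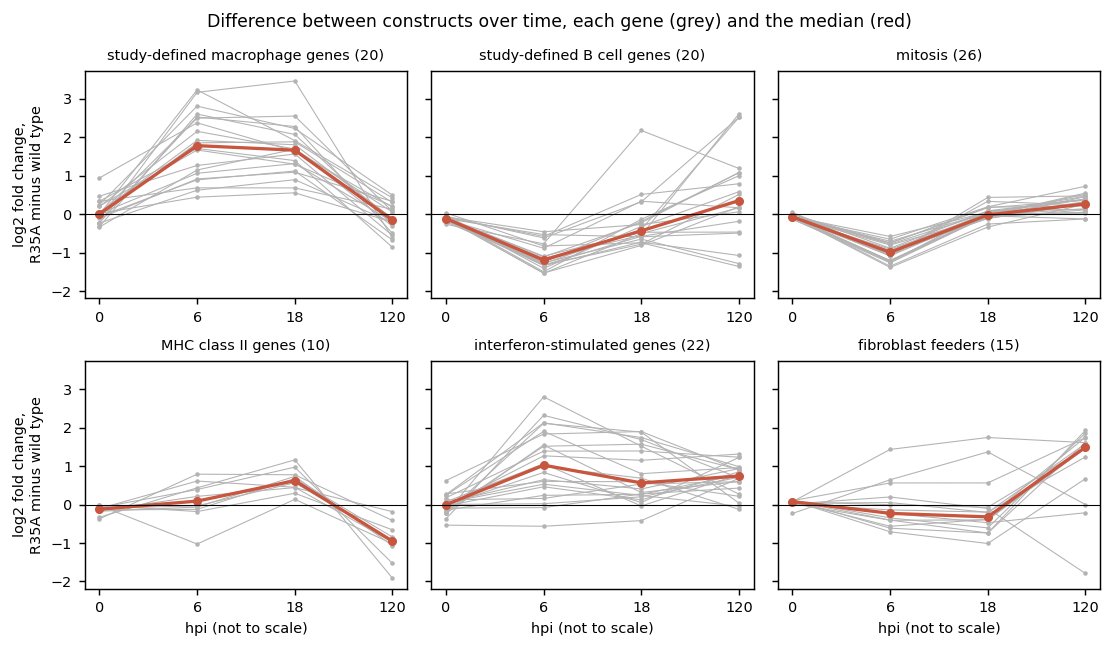
Log2 fold change of R35A minus wild-type cells at 0, 6, 18 and 120 hpi for each tested member (grey) of 6 gene lists, with the median in red and the number of genes in brackets. The macrophage genes have a median of 1.79 at 6 hpi, then 1.67 and −0.15 at the later times, and the mitosis genes one of −0.99 at 6 hpi and −0.02 at 18 hpi.

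Most genes called at 18 hpi differed in the direction in which wild-type cells changed between 0 and 120 hpi. Of the 1173 higher genes, 984 (83.9%) rose in wild-type cells from 0 to 120 hpi, a change seen in 23.1% of all genes tested (63.3% changed in either direction), and 87 (7.42%) fell. Of the 538 lower genes 449 (83.5%) fell on that route, as did 40.2% of all genes, and 34 (6.32%) rose. Some of the lower genes are of fibroblast or contractile type and had first risen in the wild-type libraries. Mean Acta2 was 1472, 3236 and 25.4 CPM there at 0, 18 and 120 hpi, and 1503 CPM in R35A cells at 18 hpi. Col1a1 had 364, 1041 and 27.4 CPM, and 623 CPM. How many of the 449 took such a course was not counted, and the part of fibroblast RNA in these shares was not tested. The libraries of 0 and 120 hpi are not among the 4 compared at 18 hpi, although they entered the filter and the estimate of the spread. Prtn3 and Pltp were among the 34 that were lower in R35A cells and rose in wild-type cells.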

How the data were processed

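The deposited table holds counts, whole numbers of reads per gene without normalization, for 40354 genes. According to the methods and labels, the authors sequenced stranded mRNA libraries from 1 end (50 bases), used FastQC for read quality and STAR 2.5.0a for alignment to mm10 and counting, and normalized with DESeq2 1.14.1. The annotation release and the strand column are not given in the sources used here, so overlapping and antisense genes are uncertain. Deposited log2 tables were not used. Library totals lay between 13044456 and 20580185.

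One edgeR 4.0.16 model (R 4.3.3) took all 24 libraries of both constructs, 12 groups in all: filterByExpr (16988 genes), TMM, quasi-likelihood F tests. A gene was called at an adjusted p of at most 0.05 and at least 1.5-fold. Standard errors come from the F statistic, adjusted p-values from all genes tested. Symbols and coordinates are from GENCODE vM21, promoters from RefSeq. R35K counts were scaled jointly with the others and not tested. The main model did not pair libraries by replicate number. The replicate differences of wild-type and R35A cells at 18 hpi correlated at −0.044 over 10648 genes. Over 66 pairs of groups this correlation was above 0.1 in 2 and at most 0.24. Because replicates differed by little more than counting noise, a low correlation cannot exclude a pairing.

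Genes were named by a rule: the 12 largest differences in each direction with at least 10 CPM and no overlap, up to 4 called members of each of 29 lists (where under 2 were called, the 2 with the highest level) and 14 fixed genes. Other list members and genes are named as examples, chosen after their values were seen. A few genes that the rule names are not reported here. The comparison and the lists were chosen with earlier results of these data known. On simulated counts with 200 changed genes at 18 hpi, 193 were recovered among 16837 genes, with 4 false calls. Alternatives were DESeq2 1.42.0, its size factors in edgeR, other filters and fold thresholds, a replicate block, the compared groups alone, and leaving out each library.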

Additional observations from a re-analysis of the deposited data

Results flagged for a closer look

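The change from 0 to 18 hpi differed between R35A and wild-type cells in 1421 genes, by an interaction term in the edgeR fit. The difference between the constructs at 18 hpi differed from that at 6 hpi in 1435 genes, and that at 120 hpi differed from that at 18 hpi in 3791 genes. All 26 mitosis genes were among the 1435, with the difference moving upward from 6 to 18 hpi.

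Csf3r, Il1b and Clec4e were higher in R35A cells at 18 hpi and lower at 120 hpi. Their log2 difference moved by −4.08, −4.00 and −3.96 from 18 to 120 hpi, each by the same interaction test (adjusted p of at most 0.05).

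The R35K libraries, where lysine stands at position 35, entered no comparison of the report. At 18 hpi both R35K libraries lay above both wild-type libraries in all 12 genes of the higher side and below them in all 12 genes of the lower side, after joint scaling of the 2 tables and without a test. Over the 17277 genes of that scaling, both R35K libraries lay above both wild-type libraries in 38.1% and below them in 29.5%, and the 24 genes had been chosen for their difference from the same wild-type libraries. Arg1, for example, had 6.67 and 5.74 CPM in R35K cells, between the wild-type and the R35A level, while Apoe had 967 and 965 CPM, above both. On the joint scale the 15 fibroblast markers summed to 11970 and 12260 CPM in the R35K libraries, 19680 and 19200 CPM in wild-type cells and 14080 and 14190 CPM in R35A cells. The 12 macrophage markers summed to 5750 and 5521 CPM in R35K cells, against 913 and 911 CPM in wild-type and 3764 and 3799 CPM in R35A cells. The 12 B cell markers summed to 453.5 and 445.7 CPM in R35K cells, above the 398.3 and 401.8 CPM of wild-type cells, whereas R35A cells had 294.2 and 294.4 CPM.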

How the results depend on the processing

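Over all genes tested, only the fold threshold moved a count of calls by more than 1.5 times. At 2-fold, 879 genes differed at 18 hpi (665 higher, 214 lower), 725 differed in the change from 0 hpi (523 and 202), 562 between 18 and 6 hpi (445 and 117) and 2410 between 120 and 18 hpi (1056 downward). With adjusted p alone these were 5310 (2869 and 2441), 3678 (2023 and 1655), 4416 (2396 and 2020) and 7019 (3636 and 3383). The 1711 calls at 18 hpi became 1443 by DESeq2's Wald test, 1718 with DESeq2 size factors (60.4% higher instead of 68.6%, with the median of all genes at −0.06), 1713 and 1714 under the other filters and 1677 with the compared groups alone. With those size factors, lower members went from 5 to 8 in the study's B cell genes, from 1 to 3 in G1 cyclins and inhibitors and from 0 to 1 in V(D)J recombination, and higher members from 2 to 1 in cholesterol genes and in the Bcl2 family. Leaving out 1 library gave 1540 to 1569. With a replicate block 1702 genes were called, and the pairing changed the call of Bcl2a1d alone among the named genes. Of 117 named genes 94 were called, 0 reversed under any of the 12 alternatives, and 9 lost the call under at least 1 alternative other than a fold threshold (Stard4, Bcl2a1d, Erg, Batf2, Batf3, Cd163, Nos2, H2-DMb2 and H2-Ab1). Most of these lie at low counts, where 2 libraries per group give little precision.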
